A study of Mus musculus with 2 samples.

Results

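The cells described here are dermomyotome cells, 73 cells of a mouse library of stage E10.5 (days of embryonic development) that were chosen by their own transcript counts. A cell was chosen when it held at least 2 unique molecular identifiers (UMIs, each 1 counted transcript molecule) of Pax3 and Pax7 together, at least 1 of Meox1, at most 1 of Myf5, Myod1 and Myog together, and none of Sox10 or Pax1. Only cells with at least 2000 UMIs, at least 500 detected genes and at most 10% mitochondrial UMIs entered. The 73 cells were 0.952% of the 7665 cells that entered at E10.5 (95% confidence interval 0.747 to 1.20, Clopper-Pearson). At E11.5 the rule found 0 of 8907 cells, which allows a share of up to 0.0337%.

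Both libraries came from C57BL/6 embryos, 1 at E10.5 and 1 at E11.5, in a series on the precursors of blood stem cells. Each pooled cells of the dorsal aorta with the tissue around it and of the fetal liver, dissociated with collagenase/dispase and trypsin and captured in 10x droplets. The labels name no somites among the tissues and give no number of pooled embryos. With 1 library per stage and no replicate, no test across samples could be run, and the intervals below reflect counting error alone. The libraries held 151474708 UMIs in 10996 barcodes at E10.5 and 159619785 UMIs in 12289 barcodes at E11.5. There were 37 barcode sequences present in both libraries, and 0 of the 73 cells carried one.

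The dermomyotome is the dorsal epithelial layer of the somite, the segmented block of mesoderm beside the neural tube. Its edges release cells that enter the muscle layer below or migrate to the limbs, and its centre gives rise to dermis and to muscle progenitors. Pax3 and Pax7 are the paired-box factors of this layer, Meox1 is a homeobox factor of the somite as a whole, and Myf5, Myod1 and Myog are the factors that commit cells to muscle. Pax1 marks the ventral part of the somite, the sclerotome, from which vertebrae and ribs form, and Sox10 marks the neural crest.

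The rule narrowed the E10.5 library in steps. Of 234 cells with at least 2 UMIs of Pax3 and Pax7, 50 held Sox10, a further 27 held Pax1, and 80 more held 2 or more UMIs of the muscle factors. Another 4 lacked Meox1, which left the 73. Meox1 therefore removed few cells, whereas the limit on muscle factors removed more cells than remained. Of these 80 cells, 78 held Meox1. At the edges of the rule, 11 members held exactly 2 UMIs of Pax3 and Pax7, and 30 cells that met every other condition held 1. Only 2 members held a single Meox1 UMI. At E11.5, 30 cells held at least 2 UMIs of Pax3 and Pax7, of which 12 held Sox10, 14 others held 2 or more UMIs of muscle factors and the last 4 lacked Meox1. Of those 14 cells, 9 held Meox1. Cells with 2 or more UMIs of muscle factors and no Sox10 or Pax1 numbered 209 in the younger library and 38 in the older one. The median cell held 14197 UMIs at E11.5 and, outside the 73 members, 16906.5 UMIs at E10.5, and the part of depth in the 0 was not tested.

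The members were deeper than the other E10.5 cells as a whole and close to the myogenic and sclerotome cells. A member held 4087 to 55421 UMIs, with a median of 21534, and a median of 4737 genes. The median was 16906.5 UMIs in the other E10.5 cells, of which 812 of 7592 lay under 5000 UMIs, against 1 of 73 members. It was 20897 UMIs in the myogenic cells and 19900 in the sclerotome cells defined below. Mitochondrial genes made up a median of 3.5% of a member's UMIs, and 3.84% in the other E10.5 cells.

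Per cell, the genes of the rule varied widely, and these values only describe the choice. Pax3 was found in 72 members, at 0 to 17 UMIs and a median of 4. Pax7 was found in 18 members, at most 4 UMIs in a cell, and 17 of these held Pax3 too. So 1 cell was chosen through Pax7 without Pax3, and most were Pax3 cells with no Pax7 UMI. Meox1 ranged from 1 to 43 UMIs with a median of 9. The name of these cells as lying before the myogenic factors holds only up to the limit of 1 UMI: 43 members held none, 19 held 1 UMI of Myf5, 10 held 1 of Myog and 1 held 1 of Myod1. Among E10.5 endothelial cells, defined by at least 2 UMIs of Cdh5 and expected to lack muscle factors, Myf5 was found in 1.42% and Myog in 2.28% at a median of 24438 UMIs. Among Sox10 cells, at a median of 25119 UMIs, the shares were 2.66% and 3.99%. The members' own shares were 26.0% for Myf5 and 13.7% for Myog at a median of 21534 UMIs, and since these counts were part of the choice they are a description only. With every cell thinned to 5000 UMIs, which left out 1 member, Myf5 was found in 2.78% of members, 0.580% of endothelial and 0.332% of Sox10 cells, and Myog in 5.56%, 0.580% and 1.33%. Meox1 was found in 23.1% of the endothelial and 17.3% of the Sox10 cells, so a single Meox1 UMI lies within the range of background.

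**Figure D1:**
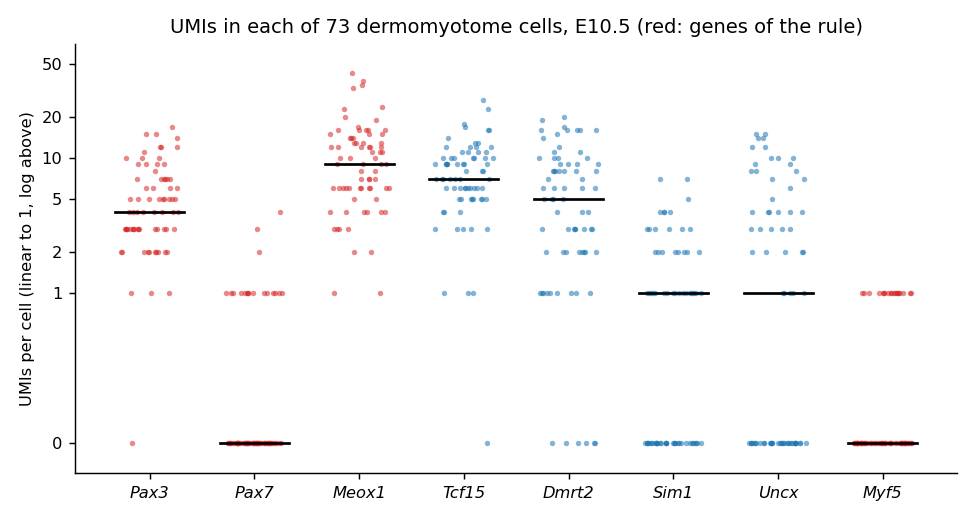
UMIs in each of the 73 dermomyotome cells at E10.5 for 8 genes. Each point is a cell, black lines are medians, the axis is linear up to 1 and logarithmic above, and red marks genes used in choosing the cells. Meox1 has a median of 9, Tcf15 of 7 and Dmrt2 of 5, and Myf5 never exceeds 1.

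Somite genes that the rule did not use were found in most members but not all. Tcf15 (paraxis), a factor needed for the somite's epithelial form, was found in 72 members at up to 27 UMIs, with a median of 7. Dmrt2, a DM-domain factor of the dermomyotome, was found in 67, at up to 20 UMIs with a median of 5. In cells thinned to 5000 UMIs the shares were 80.6% for Tcf15 and 61.1% for Dmrt2. The E10.5 library was also clustered with the 8 genes of the rule left out, and 65 of the 73 members (89.0%) fell into 1 cluster of 256 cells. The same share fell into 1 cluster at resolutions of 0.5 and 2.0. Its leading genes included Dmrt2, C1qtnf3, Tcf15, Epha3, Itm2a, Wnt16, Pdgfa, Shisa2 and Igfbp5. It also held 106 myogenic cells and 0 sclerotome cells. A further 85 cells of it belonged to neither, of which 64 held fewer than 2 UMIs of Pax3 and Pax7 and 39 held Sox10 or Pax1.

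The 8 members outside that cluster stood apart in several genes. Their median was 35903 UMIs against 21341 inside, and 4 of the 8, against 3 of the 65, were among the 8% of cells with the highest doublet scores. Scrublet's automatic threshold marked 0 cells. Of these 8 cells, 2 held 68 and 69 UMIs of Tubb3 and 42 and 110 of Nefm, both neuronal cytoskeleton genes. In the same pair of cells, 46 UMIs of Phox2a, a factor of autonomic and cranial neurons, were in the first and 55 UMIs of Cck, a neuropeptide, in the second. The first of them held 6 Pax3, 12 Meox1, 5 Tcf15 and 2 Dmrt2 UMIs. The second held 4 Pax3 and 1 Meox1 UMI and none of Tcf15 or Dmrt2. Another held 16 UMIs of Hoxa10, and 1 held only 7918 UMIs in all. Results that these 8 cells moved most are given below with the 65 alone, an alternative chosen after the data were seen. The part of mixed droplets in them was not tested.

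Markers of other cell types were low in the members, given here as summed CPM. CPM is a gene's UMIs, added up over the cells of a class, per 1000000 UMIs of that class, with haemoglobin and mitochondrial genes left out of the total. The 8 endothelial markers summed to 40.2 CPM in members and 309 in the other E10.5 cells, and 10 blood markers to 2.40 and 84.9. The 21 neural tube markers summed to 144 and 309, 10 neural crest markers to 63.0 and 172, and 9 surface ectoderm markers to 33.0 and 167. In the members 0 UMIs were found of Pax6, Sox1 and Olig3 of the neural tube, of Gata1, Klf1 and Ptprc of blood, and of Krt5 and Krt14 of the skin. Of the neural tube sum, 96.0 CPM came from Tubb3.

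The first comparison set the 73 cells beside the other 7592 cells of the E10.5 library, gene by gene. A gene was counted as past the fold when its CPM differed at least 2-fold, among genes with at least 50 UMIs on both sides together and at least 20 CPM on 1 side, with the 8 genes of the rule left out. Of 6594 such genes, 91 (1.38%) were higher in the members and 369 (5.6%) lower. Since the cells were chosen on genes that go with many others, these numbers describe the choice and test nothing.

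The gene that stood out furthest was Dmrt2. It was found in 91.8% of members and 2.82% of other cells, at 274 CPM against 5.10, a log2 ratio of 5.75 (95% interval 5.57 to 5.92). Wnt16, a secreted Wnt ligand, was at 113 CPM in members and 6.66 in other cells, a log2 ratio of 4.09 (3.86 to 4.32), and was found in 63.0% of members. Both genes lie at single positions of the GRCm38 annotation, Dmrt2 at chr19:25672411-25678991 and Wnt16 at chr6:22288227-22298522, each on the forward strand. Their upstream sequences are shown because these genes lead the comparison. Each run below is the 250 bases before the gene's start on the forward strand (RefSeq, GRCm38.p6), at chr19:25672161-25672410 for Dmrt2 and chr6:22287977-22288226 for Wnt16, and capitals mark CCAAT, searched on both strands.
Dmrt2: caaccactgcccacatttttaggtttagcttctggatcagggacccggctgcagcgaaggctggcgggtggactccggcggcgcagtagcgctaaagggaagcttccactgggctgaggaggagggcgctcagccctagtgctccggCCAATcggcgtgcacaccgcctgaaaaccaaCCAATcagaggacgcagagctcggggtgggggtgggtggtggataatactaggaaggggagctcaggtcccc
Wnt16: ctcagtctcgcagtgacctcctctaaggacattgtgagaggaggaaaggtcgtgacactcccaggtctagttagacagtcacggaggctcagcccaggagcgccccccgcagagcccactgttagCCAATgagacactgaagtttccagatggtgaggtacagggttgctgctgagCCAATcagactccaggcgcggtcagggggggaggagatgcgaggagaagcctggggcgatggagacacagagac
Each run held 2 CCAAT matches, which 10.1% of 32851 promoters of the same length do, while 33.8% held at least 1. CANNTG, the E box bound by basic helix-loop-helix factors, had 0 matches upstream of Dmrt2 and 1 upstream of Wnt16, and 66.2% of promoters held at least 1. Sim1, another of the 12 named genes, was searched too, and its run is not printed. It held 0 CCAAT and 2 E box matches, so the CCAAT matches were not shared by all leading genes. The motifs were chosen after the sequences had been read, and a match is only a description of letters. Of the 12 genes named as higher in this comparison, 10 had an entry in the promoter table.

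The other leading genes included further factors of the early somite. Tcf15 was at 362 CPM against 50.6, a log2 ratio of 2.84 (2.71 to 2.96). Tcf15 was also found in 68.7% of the endothelial cells, so it did not mark the members alone. Sim1, a helix-loop-helix factor of the lateral dermomyotome, was at 52.2 CPM against 9.70, a log2 ratio of 2.43 (2.10 to 2.74), and 39 members held it.

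Signalling and surface genes were among the leaders too. Nkd2, an intracellular inhibitor of Wnt signalling, had a log2 ratio of 3.06 (57.6 against 6.93 CPM), and Epha3, an ephrin receptor, one of 2.95 (101 against 13.1 CPM). Sema3a, a secreted guidance cue, was at 64.2 CPM against 15.4, a log2 ratio of 2.06. Plch1, a phospholipase C, was at 2.92 on the log2 scale, C1qtnf3, a secreted C1q-like protein, at 2.51, Sh3gl3 at 2.18 and Npepl1 at 2.01. These 4 were found in 61.6%, 69.9%, 69.9% and 87.7% of members.

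On the lower side, 8 genes were named. Actc1, cardiac actin, was at 6.60 CPM in members and 288 in other cells, a log2 ratio of -5.45. Acta2, smooth muscle actin, was at -5.21 and Tagln, a smooth muscle actin-binding protein, at -3.91 (-4.53 in the 65 cells). Afp, the fetal liver albumin relative, was at -4.88, Rbp4, the plasma carrier of retinol, at -4.51, and Mt1, a metallothionein, at -4.03. Car2, carbonic anhydrase, was at -6.17 with 2 UMIs in the members (95% interval -9.22 to -4.32). Emcn, an endothelial sialomucin, was at -4.83 with 3 UMIs (-7.11 to -3.28).

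By group, the early somite factors split. Of 22 dermomyotome and early somite factors, 17 were measured, 8 were higher past the fold, 5 lower, and the median log2 ratio was 0.70 beside -0.04 over all genes tested. The higher ones included Eya2 at 1.65, Eya1 at 1.30, Six4 at 1.10 and Uncx at 1.89, whose protein marks the posterior somite. The lower ones were Foxc1 at -2.55, Foxc2 at -1.66, Tcf21 at -1.44, Tbx18 at -1.40 and Ebf2 at -3.21. Tcf21 was at -2.05 and Tbx18 at -1.99 in the 65 cells. Of the ventrolateral lip genes, from which limb muscle precursors leave, 5 were measured, 4 were higher and 0 lower, with a median of 1.30. They included Sim1, Six4 and Eya1. Met, the receptor needed for those cells to leave, was below the level counted, at 31 UMIs in 23 members. Lbx1, the factor of cells already migrating, had 11 UMIs, all in 1 member. Of 11 measured genes of muscle differentiation, 10 were lower, with a median of -3.32, and of 10 measured sclerotome genes 7 were lower and 1, Uncx, higher. All 6 measured endothelial genes were lower, with a median of -4.52. Of 14 measured genes of mesenchymal matrix and transition, 7 were lower and 1, Twist1, higher at 1.12. Of 9 measured genes of the response to tissue dissociation, 0 had a ratio above 0 and 4 were lower past the fold, Fos at -1.18, Jun at -1.23, Junb at -1.37 and Dusp1 at -1.22, and their part in these differences was not tested.

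**Figure D2:**
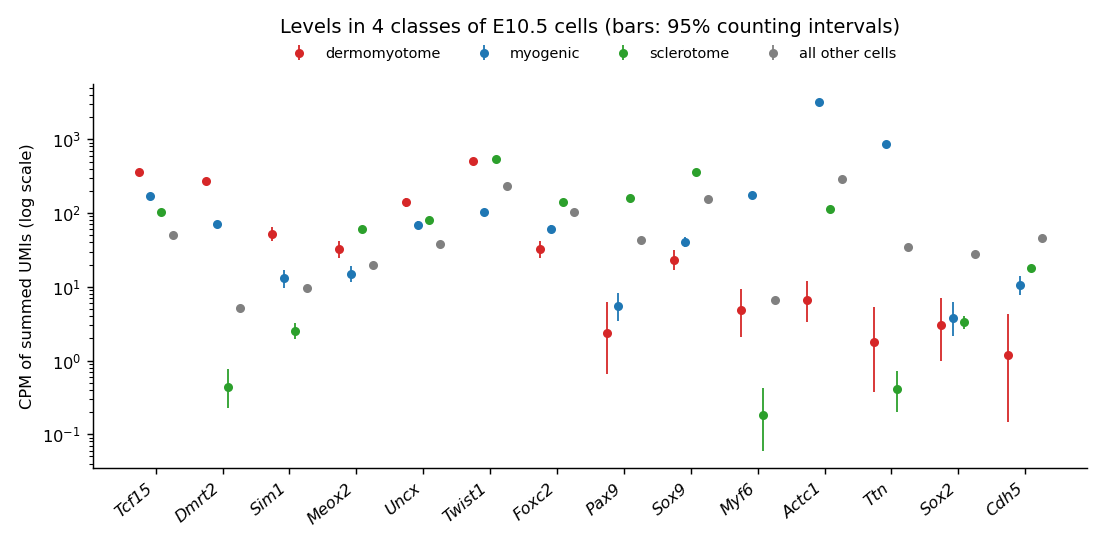
Levels of 14 genes in dermomyotome, myogenic, sclerotome and all other cells of the E10.5 library. The axis is CPM of summed UMIs on a log scale and bars are 95% counting intervals. Dmrt2 stands at 274 CPM in the dermomyotome cells, 70.3 in the myogenic and 0.443 in the sclerotome cells, and Actc1 at 6.60 CPM against 3234 in the myogenic cells.

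The nearest cells by lineage were the 209 myogenic cells, chosen by at least 2 UMIs of Myf5, Myod1 and Myog and no Sox10 or Pax1. They were a mixed class: 106 lay in the members' main cluster and 77 in another cluster of 92 cells. Actc1 was found in 71.8% of them, Tnnc2 in 45.9% and Myl4 in 34.45%, so the summed levels below come from part of the class. Of 6427 genes, 104 (1.62%) were higher in the dermomyotome cells and 395 (6.15%) lower. Muscle differentiation genes were far lower: all 20 measured were past the fold, with a median log2 ratio of -6.17 beside 0.07 over all genes, where genes at 0 UMIs entered at the bound that 3 counts allow. This follows in part from the choice, because the rule limits the factors that drive these genes. Tnnc2, fast troponin C, had 0 UMIs in the members and 673 CPM in the myogenic cells, at least 374-fold lower when 3 counts are taken as the limit that 0 allows. Myl4, an embryonic myosin light chain, had 0 UMIs against 353 CPM, at least 196-fold lower. Actc1 was at 6.60 CPM against 3234, a log2 ratio of -8.94 (-9.94 to -8.10), and Mylpf, fast myosin light chain, was at -8.49.

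The remaining muscle genes showed the same direction with few UMIs in the members. Ttn, the giant sarcomere spring protein, had 3 UMIs and a log2 ratio of -8.88 (-11.16 to -7.34). Acta1 and Myl1 had 1 UMI each, with ratios of -10.35 (-15.66 to -7.87) and -10.01 (-15.32 to -7.54). Tnnc1 was at -7.77, and at -8.53 with 2 UMIs in the 65 cells. Myf6, the muscle factor that the rule did not use, had 8 UMIs in 4 members, 4.80 CPM against 175, a log2 ratio of -5.19 (-6.40 to -4.20). Cdh15, M-cadherin, was at 19.2 CPM in members and 145 in myogenic cells, a log2 ratio of -2.91. Des, desmin, was at 27.6 CPM against 446, a ratio of -4.01.

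Several genes stayed close between the 2 kinds of cell. Six4 had a log2 ratio of 0.04 (-0.50 to 0.56), and Gas1, a hedgehog co-receptor, one of 0.05 (-0.07 to 0.17). Eya2, a transcriptional co-activator, was lower in the members, at -1.65, whereas Eya1 was at 0.82.

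Higher in the dermomyotome cells were Dmrt2, at 274 CPM against 70.3 and a log2 ratio of 1.96 (1.75 to 2.18), and Twist1, a helix-loop-helix factor of mesenchyme that restrains muscle differentiation, at 511 CPM against 102 and 2.32 (2.15 to 2.49). Twist1 was found in 66 members at up to 55 UMIs, with a median of 8, and in 41.1% of the myogenic cells. Nkd2 was at 2.68, Sim1 at 2.01 and Wnt16 at 1.82, so genes that led the first comparison were also above the myogenic cells. The other genes named were Fez1 at 2.30, Col23a1, a transmembrane collagen, at 1.89, Gap43, a growth cone protein, at 1.81 (1.04 in the 65 cells), Kif5c, a kinesin, at 1.78, Epop at 1.64, Crabp1 at 1.53 and Igf1, an insulin-like growth factor, at 1.51.

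Of the 12 genes of the central dermomyotome and dermis, the 6 measured were higher than in the myogenic cells. Of 6 measured, 5 were past the fold and 0 lower, with a median of 1.56: Twist1, Pdgfra at 1.86, the receptor of early dermal mesenchyme, Prrx1 at 1.58, Crabp1 at 1.53 and Twist2 at 1.52. The remaining one, Dcn, was at 0.63, and at -2.63 (-4.96 to -1.01) with 3 UMIs in the 65 cells. A gene low in the myogenic cells could be measured through its level in the members alone. The count of measured genes is therefore a description only. Summed over all 12 genes, the list was at 902 CPM in members against 248, of which Twist1 made up 511 and 102. This list had its median below 0 in the other comparisons, at -0.69 against all other cells and -1.26 against the sclerotome cells.

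The inhibitors of the cell cycle were lower than in the myogenic cells. Of 7 measured, 0 had a ratio above 0 and 3 were lower past the fold, with a median of -0.93. Cdkn1c, p57, was at 659 CPM against 7028, a log2 ratio of -3.41 (-3.50 to -3.33). Cdkn1a, p21, was at 9.0 CPM against 423, a ratio of -5.55. Gadd45g was at -1.87, and at -2.48 in the 65 cells. All 16 S phase genes had a ratio above 0 with a median of 0.60, and 0 of them reached 2-fold; Ung was at 0.95 and Rrm2 at 0.76. Of 15 G2 and M phase genes, 12 were above 0, with a median of 0.31. Over the sclerotome cells, 6 of 16 S phase and 1 of 15 G2 and M phase genes were above 0, with medians of -0.08 and -0.21. Over all other cells the 2 medians were 0.09 and 0.11.

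The sclerotome cells were 1312 E10.5 cells with at least 2 UMIs of Pax1 and none of Pax3, Pax7, Sox10 or the muscle factors. Of 6369 genes, 141 (2.21%) were higher in the dermomyotome cells and 236 (3.71%) lower. Dmrt2 was almost missing from the sclerotome cells: 456 UMIs in 73 cells against 12 UMIs in 1312, which is 274 CPM against 0.443 and a log2 ratio of 9.27 (8.45 to 10.23). C1qtnf3 was at 5.07 and Sim1 at 4.38. Tbx3, a T-box factor, was at 76.8 CPM against 5.31, a ratio of 3.85. Of the 5 measured genes of the ventrolateral lip, 4 were higher, among them Sim1 and Eya1 at 2.28, and the median over all genes tested was -0.03. Over the myogenic cells the same list had 1 gene higher and 1 lower, with a median of 0.04 beside 0.07 over all genes.

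Other genes above the sclerotome cells had a range of roles. Gas1 was at 496 CPM against 76.6, a log2 ratio of 2.69 (2.58 to 2.81), found in 97.3% and 56.5% of cells. Igfbp5, a binding protein for insulin-like growth factors, was at 360 CPM against 61.7, a ratio of 2.54. Epha3 and Plch1 were at 3.85 and 3.90, Wnt16 at 3.22, Celf2, a splicing factor, at 3.01, and Hoxc8 at 2.41. Tcf15 was at 362 CPM against 103, a ratio of 1.82.

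The sclerotome genes themselves were lower in 9 of 11 measured cases, with a median of -2.11. Pax9, which acts with Pax1, had 4 UMIs in the members, all in 1 cell, or 2.40 CPM against 162, a log2 ratio of -6.07 (-7.95 to -4.72). That cell lay outside the main cluster, and the 65 cells held 0 UMIs of Pax9 and of Saa1. Sox9, the cartilage factor, was at 23.4 CPM against 365, a ratio of -3.96, and was found in 24.7% of members and 92.0% of sclerotome cells. Foxd1 was at -3.85, Fli1 at -3.02, Col2a1, the cartilage collagen, at -2.42 and Foxc2 at -2.11. Uncx, in contrast, was at 140 CPM against 81.3, a ratio of 0.78. Outside the list, Tbx1, a T-box factor, was at -5.25 and Col9a1 at -4.20. Saa1 and Saa2 had 1 UMI each in the members (-6.88 and -6.54); they are near-identical copies, so their counts are uncertain. AI646519 was at -5.45 and Acta2 at -4.24.

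**Figure D3:**
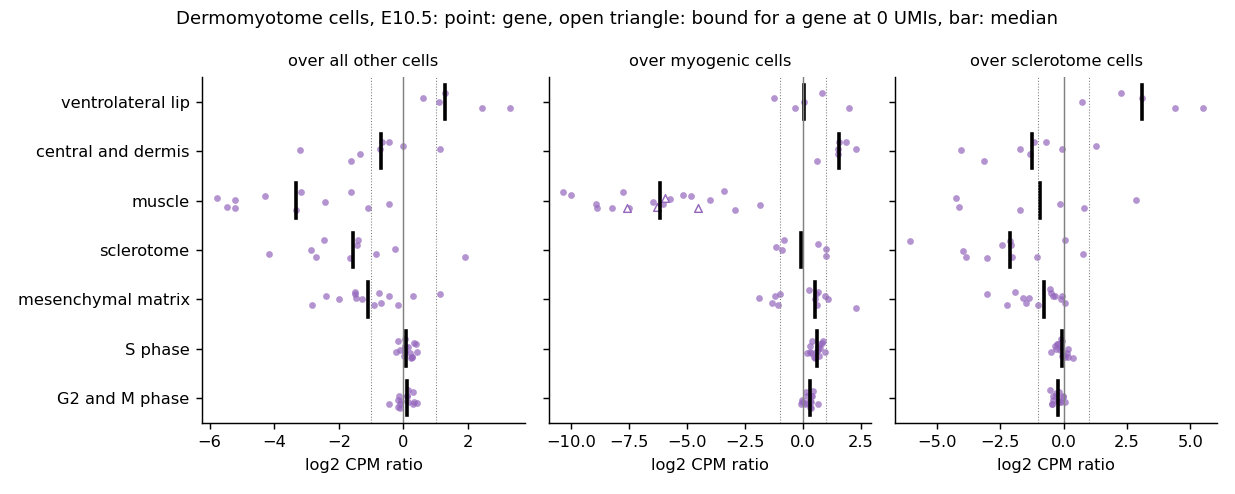
Log2 CPM ratios of the measured genes of 7 lists, for dermomyotome cells over all other, myogenic and sclerotome cells of the E10.5 library. Each point is a gene, open triangles are bounds for genes with 0 UMIs in the dermomyotome cells, bars are medians and dotted lines mark 2-fold. The muscle list has a median of -6.17 over myogenic cells and the sclerotome list one of -2.11 over sclerotome cells.

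Pathway genes were taken from lists. Over all other cells, the list medians ran from -0.81 for BMP to 0.29 for hedgehog, beside -0.04 over all genes. Of all genes tested there, 1.38% were higher past the fold and 5.6% lower. In the Wnt pathway, 12 of 22 genes were measured against all other cells, 0 were higher past the fold and 2 lower, with a median of -0.06. Of the ligands in the list, Wnt5a had 54 UMIs in 33 members, Wnt4 25 UMIs in 8, Wnt6 4 UMIs and Wnt11 1, and Wnt1, Wnt3a and Wnt7b had 0. Wnt16 was not in the list. Lef1, a nuclear effector, was at 49.8 CPM and a ratio of 0.79, and at 1.05 over the myogenic cells. Nkd1, a relative of Nkd2, was at 0.38. Rspo3, a secreted Wnt enhancer, was at -2.63 and, over the sclerotome cells, at -3.81.

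The hedgehog list had members on both sides. Gas1 was higher, at 1.44 over all other cells. Ptch1, the receptor whose transcript rises when the pathway is active, was lower at -1.29, and lower still over the sclerotome cells at -2.45 (25.8 CPM against 141). Shh, the ligand itself, had 27 UMIs in 4.11% of members, a ratio of -1.12. In the 65 cells Shh had 2 UMIs and a ratio of -4.63 (-7.68 to -2.78), and Ptch1 was at -1.95 over all other cells and -3.11 over the sclerotome cells. Gli1, another target of the pathway, had 4 UMIs in the members.

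In the BMP list, Fst, follistatin, an inhibitor of activins and BMPs, was the one gene higher past the fold, at 45.0 CPM against 11.7 and a log2 ratio of 1.95 (1.59 to 2.28). It was found in 31.5% of members. Another 4 were lower past the fold: Bmp4 at -2.93, Bambi at -1.50, Id1 at -1.01 and Smad6 at -1.01. Bmp4 was at -4.01 in the 65 cells. The ratio of Fst over the sclerotome cells was 2.85. Over the myogenic cells it was 0.20 (-0.21 to 0.60).

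Several FGF targets stood above the sclerotome cells. Etv4 was at 2.03, Spry1 at 1.87 and Spry2 at 1.31 over the sclerotome cells, whereas Dusp6, a further target, was at -0.36 and the receptor Fgfr2 at -1.36. Over all other cells only Etv4 of these passed the fold, at 1.39. In the retinoic acid list, Stra6, the importer of retinol, was at 1.12, Crabp2 at 1.03 and the synthesis enzyme Aldh1a2 at -1.41. Crabp2, a carrier of retinoic acid, was found in 71 members at up to 23 UMIs, and its ratio was also above 1 over the myogenic (1.04) and sclerotome cells (1.51). In the Notch list, 8 genes were measured over all other cells, 0 were higher and 1, Nrarp, lower at -2.79, with a median of -0.15. In the 65 cells 4 of 8 were lower past the fold, with a median of -0.64. Hey1 at 1.66 and Hes6 at 1.24 were higher over the sclerotome cells. Hes6, which accompanies differentiation, was at -1.92 over the myogenic cells.

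Adhesion genes of the epithelium were more often below the other cells than above. Of 14 measured, 4 had a ratio above 0, with a median of -0.33 beside -0.04 over all genes. Past the fold, 1 was higher and 4 lower over all other cells, where 1.38% and 5.6% of all genes tested were. The higher one was Itga6, the laminin receptor subunit, at 67.8 CPM against 32.0, a log2 ratio of 1.08; over the sclerotome cells it was at 2.46. Cdh2, N-cadherin, was at -0.07 and found in 84.9% of members. Cdh11, a cadherin of mesenchyme, was at -0.58 and over the sclerotome cells at -1.35.

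The Hox genes were taken by group. Over all other cells, 3 of 10 measured of groups 5 to 9 were higher, Hoxc8 at 1.31, Hoxa7 at 1.14 and Hoxc5 at 1.11, and Hoxb5 was lower at -1.80. Hoxc6 was found in 94.5% of members and Hoxc8 in 65.8%, so the cells were not of 1 uniform Hox level. Of groups 1 to 4, Hoxa4 was lower at -1.86 and 0 of 7 were higher. Of groups 10 to 13, 0 genes were measured: Hoxa10 had 16 UMIs, all in 1 member, and Hoxa11 had 11.

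The genes that varied most among the 73 cells were led by 3 in which 1 cell held much of the UMIs. Variation was measured as the variance of Poisson residuals given each cell's total, with a median of 1.08 over 7974 genes. Nefm (84.4), Cck (64.9) and Tubb3 (56.9) led, and in each the single highest cell held 53.7%, 87.3% and 43.1% of all UMIs. In each it was the same cell, the one outside the main cluster that held neither Tcf15 nor Dmrt2. Cdkn1c followed with 39.9. It was found in every member, with a median of 8 and a maximum of 169 UMIs, and its highest cell held 15.4% of the UMIs. The abundant transcripts Malat1 (18.4), Tmsb4x (18.1) and Actb (17.8) came next, found in all 73 cells. The other genes of the 12 were Ndufa4l2, Nefl, Ckb, Dpysl3 and Spon1, at 13.9 to 17.3.

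Pax7 divided the members into 18 cells with a UMI and 55 without, at medians of 23064 and 21173 UMIs and minimums of 14550 and 4087. Of 4661 genes, 38 (0.815%) were higher in the cells with Pax7 and 64 (1.37%) lower. These calls use the ratio alone, without its interval, and the part of counting noise in them was not tested. With at least 200 UMIs per gene, 5 and 3 of 1373 genes were called. A missing Pax7 UMI does not show that a cell lacks Pax7. The genes of G2 and M phase were above 0 in 15 of 15 cases, 5 past the fold, with a median of 0.71 beside -0.01 over all genes. Ube2c, which helps destroy cyclins in mitosis, was at 926 CPM against 402, a log2 ratio of 1.20 (1.01 to 1.39). Over the members the variance of Ube2c residuals was 13.8, beside a median of 1.08 over genes. Its interval covers counting error only and leaves out this spread between cells. Mki67, the proliferation marker, was at 289 against 143 CPM, a ratio of 1.02, Aurka, a mitotic kinase, at 1.32 and Cenpf at 1.05. Arl6ip1 was at 1.11 and Kif22 at 1.22. The S phase genes lay on the other side, with 2 of 15 above 0 and a median of -0.44. In the 65 cells of the main cluster, all 15 G2 and M genes were again above 0, with a median of 0.95, and the S phase median was -0.51.

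Further genes named as higher with Pax7 were the following. Wnt16 was at 197 CPM against 81.8, a log2 ratio of 1.27, Nkd2 at 1.29, Crabp1 at 1.15, Pdgfra at 1.33 and Col1a2, fibrillar collagen, at 1.20, or 0.53 in the 65 cells. All 4 measured genes of the central dermomyotome list were above 0, 2 past the fold, with a median of 0.91. Of the Wnt list, 3 of 7 measured genes were above 0 and 0 past the fold, with a median of -0.01. Ppp1r1a was at 1.80, but at -0.07 in the 65 cells. Lower were Tubb3 at -4.30, Nefl at -3.40 and Nefm at -2.60. In the 65 cells, Tubb3 was at -1.41 (-3.81 to 0.35), Nefl at -2.12 (-4.47 to -0.44) with 3 UMIs against 31, and Nefm at -3.03 (-6.13 to -1.08) with 2 against 39. Fst had 5 UMIs in the cells with Pax7 and 70 in those without, a log2 ratio of -2.40 (-4.07 to -1.11), and at -2.48 in the 65 cells. Id1 was at -1.37 and Id3, another inhibitor of helix-loop-helix factors, at -0.96. Dpysl3 was at -2.03, or -0.51 (-2.31 to 0.99) in the 65 cells, and Tpm1, tropomyosin, at -0.92. Of the 64 genes lower with Pax7, 23 were lower among the 65 cells too, and of the 38 higher, 20.

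Position genes overlapped in the members. Sim1 was found in 39 cells and Uncx in 39, with 17 holding both, 22 only Sim1, 22 only Uncx and 12 neither. En1, a homeobox factor of the central dermomyotome, was found in 6 cells, and all 6 also held Sim1. Of these 6, 5 held Pax7, as did 19.4% of the 67 cells without En1. Tbx18, the factor of the anterior somite, was found in 9 cells, of which 3 also held Uncx. Pax7 was found in 35.9% of the cells with Sim1 and 11.8% of those without. Since a gene at a few UMIs per cell is often missed, these counts are of detection. Median depth was 22892 UMIs with Sim1 and 20646.5 without. The lowest depth was 13619 UMIs with Sim1 and 4087 without, so the shallowest cells all lacked a Sim1 UMI.

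With the members split by Sim1, a choice made after the data were seen, 25 of 4660 genes (0.536%) were higher in the 39 cells with Sim1 and 38 (0.815%) lower. These calls, too, use the ratio alone, and with at least 200 UMIs per gene they were 1 and 6 of 1373. The part of counting noise in them was not tested. Of the central dermomyotome and dermis list, 4 of 4 measured genes were above 0, 3 past the fold, with a median of 1.31 beside 0.00 over all genes, and of 1.20 in the 65 cells. Prrx1 was at 63.2 CPM against 16.4, a log2 ratio of 1.94 (1.01 to 3.02), Pdgfra at 1.54 and Crabp1 at 1.09. Col1a1, the main fibrillar collagen, was at 68.2 against 11.9 CPM, a ratio of 2.51 (1.45 to 3.78), and Col3a1 was at 1.18; in the 65 cells they were at 1.87 and 0.53. Dmrt2 itself was at 329 CPM with Sim1 and 191 without, a ratio of 0.78. Nkd2 was at 1.54, Clmp, an adhesion molecule, at 1.73, Prex2 at 1.34, Tshz1 at 1.32 and Auts2 at 0.99. The histone Hist1h2ap was at 0.74, and its count is uncertain because histone genes are near-identical copies.

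Lower with Sim1 were Tubb3 at -5.03, Nefm at -3.56, Ndufa4l2 at -4.19, Dpysl3 at -2.24, Nefl at -1.97 and Crmp1 at -1.98. Both of the cells with the most Tubb3 held no Sim1. In the 65 cells Tubb3 was at -2.10 (-3.74 to -0.67), and Ndufa4l2, Dpysl3 and Nefl were at 0.32, 0.41 and 0.19. Nefm was at -1.79 there and Crmp1 at -0.44. Tpm1 kept its side, at -1.35 in all members and -1.45 in the 65, as Id3 did at -1.20 in the 65. Phlda1 was at -1.67. Of the 38 lower genes, 14 were lower in the 65 cells, and of the 25 higher, 14.

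The members were split last by the single UMI of a muscle factor, also after the data were seen, into 30 cells with 1 and 43 with 0, at medians of 21361.5 and 21658 UMIs. Of 4661 genes, 37 (0.794%) were higher with that UMI and 21 (0.451%) lower. Calls again use the ratio alone, and with at least 200 UMIs per gene they were 3 and 1 of 1373. The part of counting noise in them was not tested. Tpm1, which serves the contractile apparatus, was at 665 CPM against 263, a log2 ratio of 1.34 (1.11 to 1.56), and at 1.45 in the 65 cells. Its residual variance over the members was 13.05, beside a median of 1.08 over genes, a spread that the interval leaves out. Itm2a was at 1.21, Gap43 at 1.60 (0.06 in the 65 cells), Flrt3 at 1.31, Parm1 at 1.48, Aldh1a2 at 1.65, Ppp1r1a at 1.99, Sparc at 1.07 and Id3 at 0.91. In the 65 cells Ppp1r1a was at 1.09, Sparc at 0.55 and Vcan at -0.25, beside 1.30 for Vcan in all members. All 6 measured genes of the BMP list were above 0, 1 past the fold, with a median of 0.69 and of 0.52 in the 65 cells. Phox2a at 4.03 and Dpysl3 at 1.90 rest largely on 1 cell each, and in the 65 cells Phox2a had 1 UMI and Dpysl3 was at -0.14.

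Lower with the muscle factor UMI was Dmrt2, at 188 CPM against 336, a log2 ratio of -0.84 (-1.14 to -0.54) and of -0.70 in the 65 cells. Crabp1 was at 120 CPM against 284, a ratio of -1.24, and at -1.15 in the 65. Sfrp2, a secreted Wnt inhibitor, was at -1.30, Cthrc1 at -1.07, Fads1 at -1.22, Med7 at -1.08 and Smarcd2 at -0.98. Cck, at -4.49, rests on 1 cell, and was at -0.65 with 2 and 5 UMIs in the 65. Of the 4 measured genes of the central dermomyotome list, 0 were above 0, 1 was past the fold, and the median was -0.97; in the 65 cells it was -1.20 with 3 past the fold. Of the 37 higher genes, 12 were higher among the 65 cells, and of the 21 lower, 5.

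**Figure D4:**
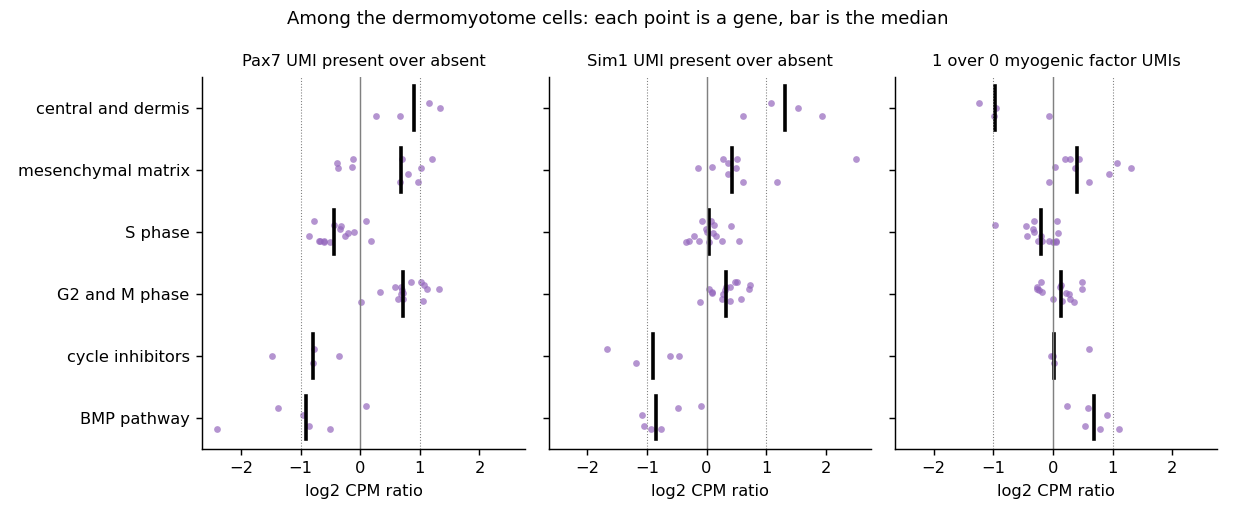
Log2 CPM ratios of the measured genes of 6 lists within the 73 dermomyotome cells, split by a Pax7 UMI, by a Sim1 UMI and by a myogenic factor UMI. Each point is a gene, bars are medians and dotted lines mark 2-fold. The G2 and M phase median is 0.71 with Pax7, and the central and dermis median is 1.31 with Sim1 and -0.97 with a myogenic factor UMI.

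Meox1 was followed across the 32 clusters of the E10.5 library, which share 1 library and its depth. The genes whose level was most like that of Meox1, by Pearson correlation of log2(CPM + 5), were Dnm3os (r = 0.82), Meox2 (0.81), Fibin (0.80), Wnt16 (0.76), Ebf3 (0.76), Ebf2 (0.75), Fndc3c1 (0.75) and Twist1 (0.73). Meox1 was at 658 CPM in cluster 6, at 622 in cluster 14 and at 487 in cluster 19, which held the 65 members. Meox2, its paralogue, was at 32.4 CPM in the members and 60.8 in the sclerotome cells, a log2 ratio of -0.91. Ebf2, whose level was like that of Meox1 over clusters, was at 3.0 CPM in the members.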

How the data were processed

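Single-cell libraries of 1 E10.5 and 1 E11.5 sample of mouse embryonic tissue were analysed. The authors deposited raw UMI counts per gene and barcode, made with Cell Ranger 5.0.0 and mm10 (GRCm38) per the submitters' processing notes. The annotation release is not given in the sources used here. No normalization had been applied to the counts.

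Barcodes with fewer than 2000 UMIs, fewer than 500 genes or over 10% mitochondrial UMIs were dropped. The members, gene lists and splits were chosen with earlier results of these data known. For each class the UMIs of its cells were added up and scaled to the class total without haemoglobin and mitochondrial genes (CPM). Ratios carry exact conditional 95% intervals, checked on simulated counts, shares carry Clopper-Pearson intervals, and both cover counting error only. A count of 0 is read against a floor of 3 counts. Since cells are not replicates and each stage had 1 library, no p-value was computed.

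Named genes had at least 50 CPM on 1 side, at least 50 UMIs on both sides together and a UMI in at least 10% of cells of the higher side. Genes were ordered by whichever interval bound lay closer to 0, and the first 12 higher and 8 lower were named in each comparison. Predicted genes and Xist, Y-linked, haemoglobin and mitochondrial genes were not named. Gene lists may share genes. Some genes that the rule names are not reported here. Leiden clusters (resolution 1.0) were built without the 8 genes of the rule. Scrublet scores marked 0 cells at the automatic threshold, so doublets stayed in, and removing the 8% with the highest scores was an alternative. Other alternatives were other limits of the rule and of cell quality, thinning to 5000 UMIs, other gene minimums, other scalings and the members of 1 cluster. Gene positions came from GENCODE M21, which matched 31011 of 31053 gene IDs. Python 3.11.15, numpy 2.4.6, scipy 1.17.1, pandas 2.3.3, scanpy 1.11.5, igraph 0.11.9 and matplotlib 3.10.9 were used.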

Additional observations from a re-analysis of the deposited data

How the results depend on the processing

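No paired analysis was possible because each stage had 1 library, so the groups share fewer than 2 replicate numbers. Over all settings, 1446 values of named genes stayed within their interval, 133 moved beyond it and 19 changed side. A gene minimum changes which genes are tested and leaves the ratio of a named gene as it was. Values under the other gene minimums therefore stayed by construction, and the 1446 include them, so this count overstates stability. Among list medians, judged against the spread that their genes' intervals give, 1280 stayed, 329 moved and 6 changed side. Of the main counts, 110 stayed within 1.5 times and 20 moved.

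Thinning every cell to 5000 UMIs before the rule left 36 members at E10.5 and 1 at E11.5. It gave 349 genes higher and 984 lower than in all other cells, which held 67 of the 91 and 286 of the 369 called before. Over the myogenic cells 2694 genes were tested, with 91 higher and 261 lower. These held only 10 of the 104 and 170 of the 395 called before. Over the sclerotome cells 290 were higher and 727 lower, which held 49 of the 141 and 174 of the 236. In the Pax7 split it gave 1 gene higher and 10 lower, of which 0 and 1 were among the genes called in all members, with Nkd2 at -0.15 and Pdgfra at -0.83. In the Sim1 split it gave 1 higher and 29 lower, 0 and 1 of them shared, and the central dermomyotome median and Auts2 were both at -0.37, Hist1h2ap at -0.87, Tubb3 at 0.040, and Ndufa4l2 and Crmp1 both at 1.62. In the muscle factor split it gave 3 higher and 16 lower, 1 and 0 of them shared, and Sparc was at -0.98, Cthrc1 at 0.12 and Fads1 at 0.28. Fewer members and UMIs remained after thinning, and depth limits what the splits can show.

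With 0 UMIs of muscle factors, 43 members remained, 40 genes were lower in the Pax7 split and Ppp1r1a was at -0.72; the muscle factor split could not be run. Averaging each cell's CPM gave 180 genes higher than in the myogenic cells. At least 200 UMIs per gene gave 24 higher and 222 lower than in the myogenic cells, 5 and 3 in the Pax7 split, 1 and 6 in the Sim1 split and 3 and 1 in the muscle factor split. At least 20 UMIs gave 155 and 189, 146 and 165, and 186 and 80 in these splits. Removing the 8% of cells with the highest Scrublet scores gave 41 genes lower in the Pax7 split, with Phox2a at -1.39 and Dpysl3 at -0.75 in the muscle factor split. In the 65 members of the main cluster, 40 genes were lower with Pax7 and Ppp1r1a was at -0.069; with Sim1, Ndufa4l2 was at 0.32, Dpysl3 at 0.41 and Nefl at 0.19; with the muscle factor UMI, Dpysl3 was at -0.14 and Vcan at -0.25.

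The neural tube list over the sclerotome cells had 3 measured genes and a median of 2.02, which is the value of Tubb3. It was -0.34 without the highest Scrublet scores, -0.84 with at least 2 UMIs of Meox1, -0.60 in the main cluster, -0.47 with CPM over all genes and -0.48 with at least 200 UMIs per gene. Keeping the main cluster leaves out the 2 cells with the most Tubb3 by construction. Requiring at least 2 UMIs of Meox1 leaves out the one with 69 Tubb3 UMIs, which held 1 Meox1 UMI. Removing the highest Scrublet scores leaves out the one with 68. A minimum of 200 UMIs leaves each ratio as it was, so that median moved because fewer genes of the list were measured. CPM over all genes shifts every ratio by the same small amount, so there too the set of measured genes differed.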
